A study of Homo sapiens with 6 samples.

Results

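The regions described here carried a 5-hydroxymethylcytosine (5hmC) peak in normal glucose, and no 5hmC peak in high glucose and no 5-methylcytosine (5mC) peak at either glucose level. They were found by pooling the peaks of 4 deposited lists on chromosomes 1 to 22 and X, joining peaks that overlapped by at least 1 bp, and keeping the joined regions to which the normal-glucose 5hmC list contributed alone. This gave 53967 of 319166 regions, or 16.9%, each made of a single peak. They are called normal-only regions below. Their counterparts, with 5hmC in high glucose alone and no 5mC, numbered 41224, or 12.9% of all regions. The stable regions, with 5hmC at both glucose levels and no 5mC, numbered 108421. Since the regions were chosen by the presence of a peak in the 4 lists, their numbers and 5hmC peak values describe that choice and are given without a test.

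All libraries came from A2058, a human melanoma line, carrying an overexpressed TET2WT construct. The cells were grown for 7 days in normal glucose or in high glucose, and no line without the construct was part of the 6 samples. Each glucose level had 1 hMeDIP-seq library for 5hmC, 1 MeDIP-seq library for 5mC and 1 input library. The input libraries were left out. With 1 library per mark and glucose level there is no replicate check, no difference between glucose levels can be told apart from a difference between 2 libraries, and no p-value across regions is given. The labels name neither the promoter of the construct nor how many clones the cells came from.

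TET2 is a dioxygenase that turns 5mC into 5hmC and further oxidised bases, which can lead to loss of the methyl mark. 5hmC is known to accumulate in gene bodies and around enhancers, and its loss is a known mark of melanoma. AMPK, a kinase that senses low cellular energy, is known to phosphorylate TET2 and to protect it from degradation. In hMeDIP-seq and MeDIP-seq an antibody pulls down fragments that carry the modified base, so a peak needs several modified cytosines close together. A site with 5hmC and no 5mC peak may therefore still hold 5mC at a density below detection.

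Read numbers are not part of the deposited lists. The fold and p-value of a peak together fix the number of fragments at its summit and the number expected there. The smallest expected number that many peaks shared, read as the genome-wide background, was 2.64 fragments in the normal-glucose and 3.03 in the high-glucose 5hmC list, and 0.615 and 0.737 in the 5mC lists. The 5hmC lists of normal and high glucose held 209999 and 191314 peaks, a ratio of 1.098. At stable regions with 1 peak from each list the summit held fewer fragments in normal glucose at 69.5% of 105714 regions, and the median ratio of fragments, normal over high, was 0.870. The expected number differed in the same way, with a median ratio of 0.870 and quartiles of 0.722 and 1.06. The 5mC lists rest on a much thinner background than the 5hmC lists, so the absence of a 5mC peak is a weaker statement than the absence of a 5hmC peak. Regions are given by position on hg19, since no gene annotation or genome of that build was used here, and the sequences under the peaks are not printed for the same reason.

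Most normal-only regions were weak, narrow 5hmC peaks. Their summits held a median of 16 fragments (quartiles 13 and 18, range 8 to 73). High-only regions held 18 (15 and 21), and the normal-glucose peaks of stable regions held 22 (17 and 28). The median fold over background was 3.69 in normal-only, 3.86 in high-only and 4.70 in stable regions. The median -log10 p was 6.36, 7.47 and 10.3 in the same order, and the median width was 334, 349 and 463 bp. A normal-only peak had the shortest width of its list, 259 bp, in 11.9% of cases. A -log10 p of at least 10 was reached by 6329 normal-only regions, or 11.7%, against 8777 high-only regions, or 21.3%. At 20 or more there were 93 normal-only and 223 high-only regions.

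**Figure D1:**
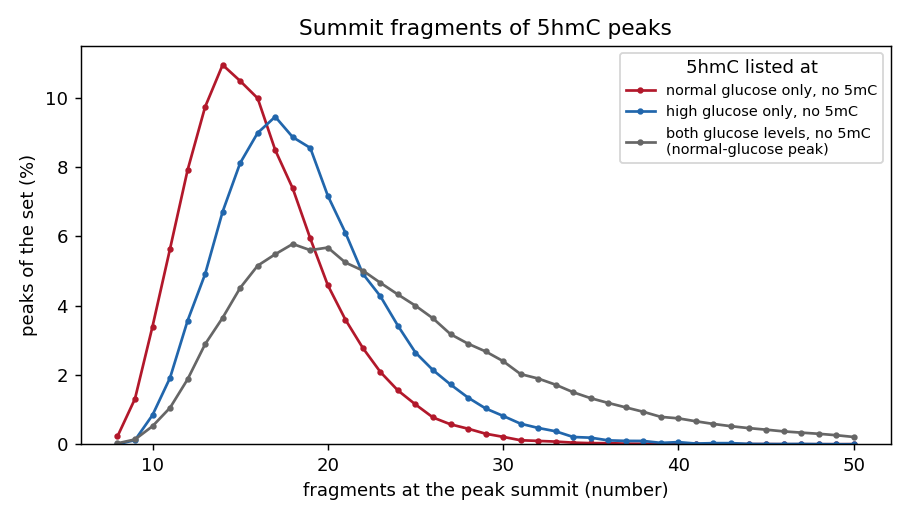
Share of 5hmC peaks (%, vertical axis) by the number of fragments at the summit (horizontal axis), for normal-only, high-only and stable regions without 5mC. The curve of normal-only regions lies furthest to the left, with a median of 16 fragments against 18 in high-only and 22 in stable regions.

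Many of these regions lay close to the limit of detection. If the expected number at a normal-only region is scaled by the ratio seen at stable regions, the high-glucose list would have needed a median of 10 fragments (quartiles 9 and 12) to list it at its lowest p-value. The normal-glucose summits held a median of 5 fragments more than that, and 12794 of them, or 23.7%, held at most 2 more. At 7933 normal-only regions, or 14.7%, the summit held at least 2 times as many fragments, after adding 1 to both numbers, as the highest number the high-glucose list could have left out. The same calculation for high-only regions gave 21206, or 51.4%. The order turned when the fragments of normal and high glucose were also put on 1 scale by their median ratio at stable regions, to 29.9% of normal-only and 22.8% of high-only regions. These shares rest on the scaled expectation and not on reads counted in the other library. The rule itself also has near misses. Within 50 bp of a peak of another list lay 486 normal-only regions, of which 5 touched it with no base shared, while 546 other normal-glucose 5hmC peaks shared 50 bp or less with the other lists and 8 of them shared only 1 bp. The least certain normal-only peak had a q-value of 0.0487.

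Normal-only regions outnumbered high-only regions by a ratio of 1.31, and covered 21.4 Mb against 16.5 Mb. The ratio of numbers was higher where 5mC was present: 5hmC in normal glucose alone met a 5mC peak in 9445 regions and 5hmC in high glucose alone in 3947, a ratio of 2.39. Of all regions with 5hmC in normal glucose alone, 85.1% were free of a 5mC peak (Wilson 95% interval 84.8 to 85.4), against 91.3% of those with 5hmC in high glucose alone (91.0 to 91.5). The intervals cover counting only, since neither fragments nor regions are independent. The ratio without 5mC changed when weak peaks were dropped. It was 0.645 when every list was kept at a -log10 p of at least 10, with 19843 normal-only and 30754 high-only regions. It was 0.961 when both 5hmC lists and both 5mC lists were kept at equal length. Both settings formed the classes anew, so a region could count as normal-only although a weaker peak of another list overlapped it. The limit of 10 kept 85278 of 209999 normal-glucose 5hmC peaks. It was the same for 2 libraries whose summit fragments stood at a median ratio of 0.870 at stable regions. The limit can therefore shorten 1 list more than the other, and the cause of the change was not tested. Of the normal-only and high-only regions of the full lists, only 6329 and 8777 reached a -log10 p of 10.

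The strongest normal-only region by -log10 p was chr2:55600253-55600702. Its summit held 43 fragments (exact Poisson 95% interval 31.1 to 57.9) where 3.16 were expected. The nearest high-glucose 5hmC peak lay 3443 bp away. The intervals of the strongest regions do not allow for their having been picked as the strongest. The second, chr16:51796416-51797274, held 37 fragments (26.1 to 50.9996). It lay 43390 bp from any 5mC peak, and 3 of the 4 normal-glucose 5hmC peaks within 25 kb of its summit were normal-only regions. The third, chr19:14705117-14705455, held 39 fragments (27.7 to 53.3) and lay 788 bp from a high-glucose 5hmC peak, so that it stood as a separate short peak beside a shared one.

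The fourth, chr9:19120824-19121955, held 42 fragments (30.3 to 56.8). It stood in a stretch where the normal-glucose library listed 12 5hmC peaks within 25 kb and the high-glucose library 3, and where 8 of the 12 were normal-only regions and no high-only region was present. Both glucose levels listed 5 5mC peaks in that stretch. The fifth, chr1:201267839-201268469, held 44 fragments (31.97 to 59.1) in surroundings of 14 normal-glucose and 9 high-glucose 5hmC peaks. The other 5 were chr10:115416610-115417106 with 35 fragments, chr11:92959593-92959987 with 39, chr12:57908329-57911008 with 42, chr7:2502539-2502950 with 33 and chr15:44044136-44044627 with 33. Over the 10 regions the high-glucose list would have needed 9 to 14 fragments at these places by the scaling described above. Within 25 kb of the summit, the region itself left out, 6 of the 10 had more 5hmC peaks in normal than in high glucose and 2 had equal numbers. Of the 10, 6 had 5mC peaks of both glucose levels and 2 had no 5mC peak. The strongest regions therefore lay both beside 5mC peaks and in surroundings without a listed 5mC peak.

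**Figure D2:**
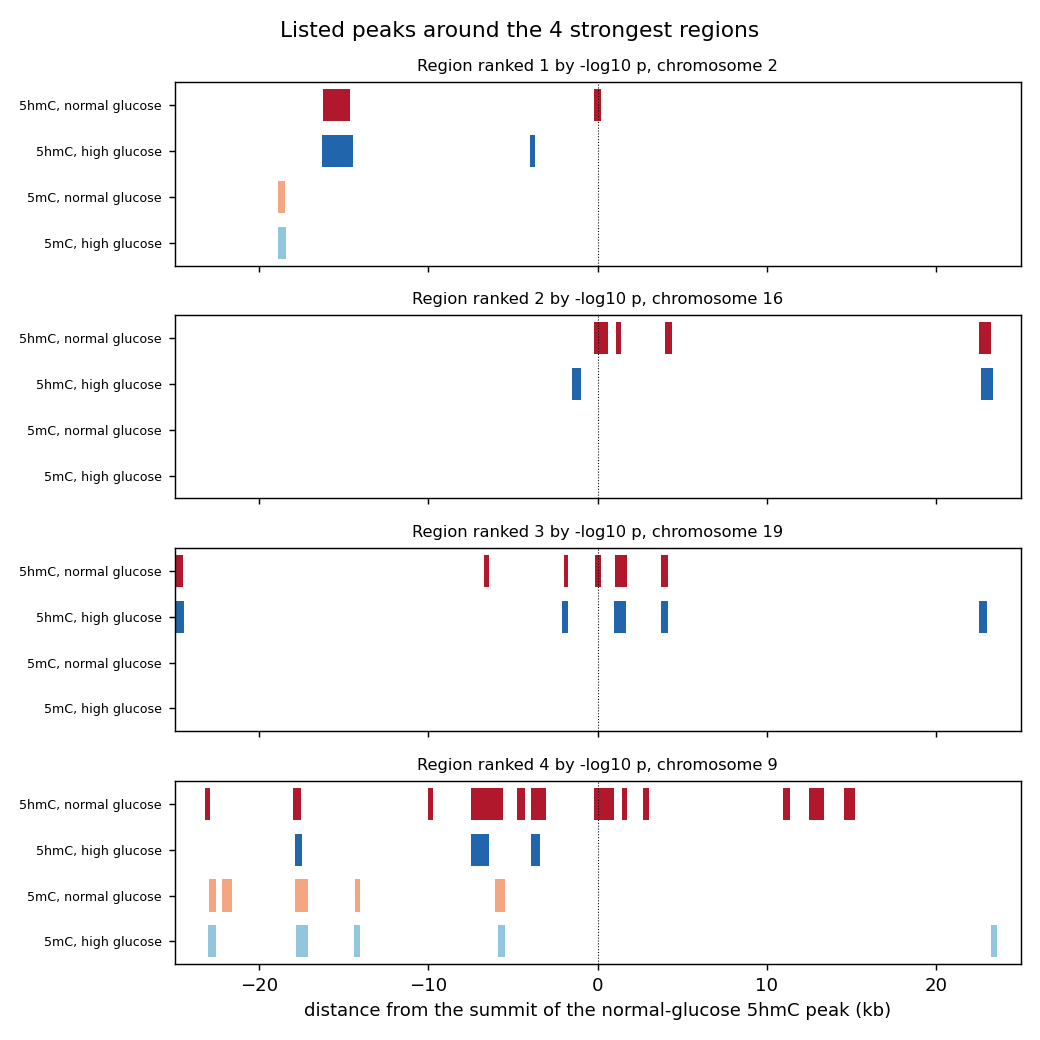
Listed peaks of 5hmC in normal and in high glucose and of 5mC in normal and in high glucose (rows) against the distance from the summit of the normal-only region (kb), for the 4 strongest normal-only regions. On chromosome 9 the normal-glucose library has 12 5hmC peaks and the high-glucose library 3 in the stretch shown.

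Normal-only regions were found on every chromosome, with 9.69 per Mb on the X chromosome as the sparsest and 29.6 per Mb on chromosome 17 as the densest. Chromosome 22 followed with 28.7 per Mb and chromosome 20 with 26.5. As a share of all regions on the chromosome the picture was the reverse. Normal-only regions made up 15.2% on chromosome 17, 15.4% on chromosome 22 and 15.8% on chromosome 20. On the X chromosome they made up 18.2%, and over all chromosomes 16.9%. They outnumbered high-only regions on 23 of 23 chromosomes, with ratios from 1.05 on the X chromosome to 1.70 on chromosome 22. Chromosome 17 had 2401 normal-only and 1479 high-only regions, a ratio of 1.62, and chromosome 22 had 1007 and 594. The X chromosome had 1475 and 1400. Relative to stable regions the order was different. Chromosome 21 had 63.7 normal-only regions per 100 stable ones and chromosome 19 had 39.1. With only peaks of a -log10 p of at least 10 no chromosome had more normal-only than high-only regions, and with lists of equal length 7 had.

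**Figure D3:**
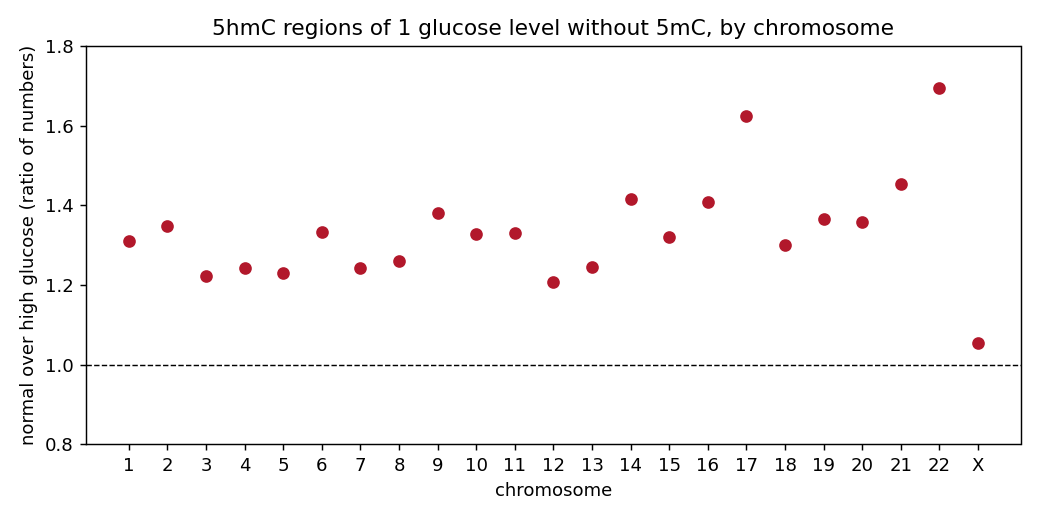
Ratio of numbers, normal over high glucose (vertical axis, starting at 0.8), for each chromosome. Circles are normal-only over high-only regions, and the dashed line marks equal numbers. Chromosomes 22 and 17 stand highest, at 1.70 and 1.62, and the X chromosome lowest, at 1.05.

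Towards the chromosome ends normal-only regions were somewhat more frequent than high-only ones. Within 5 Mb of the outermost listed peak of an autosome lay 9.53% of normal-only regions (Wilson 95% interval 9.28 to 9.79), 8.35% of high-only regions (8.09 to 8.63) and 9.54% of stable peaks (9.37 to 9.72). Stable peaks were the more frequent there under both of the following settings. In the first, every list lost its peaks below a -log10 p of 10 before the classes were formed anew. Of the resulting 19395 autosomal normal-only regions 9.69% lay in these zones, against 8.65% of high-only regions and 11.1% of stable peaks. Some of these normal-only regions could overlap a dropped peak of another list. With the full lists and peaks within 500 bp taken as touching, the shares were 8.37%, 7.74% and 8.99% in the same order. The ratio of normal-only to high-only regions was 1.60 within 2 Mb of an end, 1.45 from 2 to 5 Mb, 1.43 from 5 to 10 Mb, 1.38 from 10 to 20 Mb and 1.26 beyond 20 Mb.

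Although no normal-only region overlapped a 5mC peak, these regions lay closer to 5mC than either other set. Regions that overlapped 5mC had been left out of all 3 sets, but not to the same degree. Of all regions with 5hmC at 1 glucose level alone, 85.1% in normal and 91.3% in high glucose were free of a 5mC peak. The distances beyond the overlap are therefore not wholly independent of the rule. The nearest 5mC peak of either glucose level was a median of 6652 bp away (quartiles 2006 and 23538) from normal-only regions, 12190 bp from high-only regions and 9899 bp from stable peaks. Within 5 kb of a 5mC peak were 43.7% of normal-only regions (43.3 to 44.1), 32.4% of high-only regions (31.9 to 32.8) and 35.9% of stable peaks (35.6 to 36.2). Within 1 kb the shares were 14.3%, 9.88% and 10.6%.

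**Figure D4:**
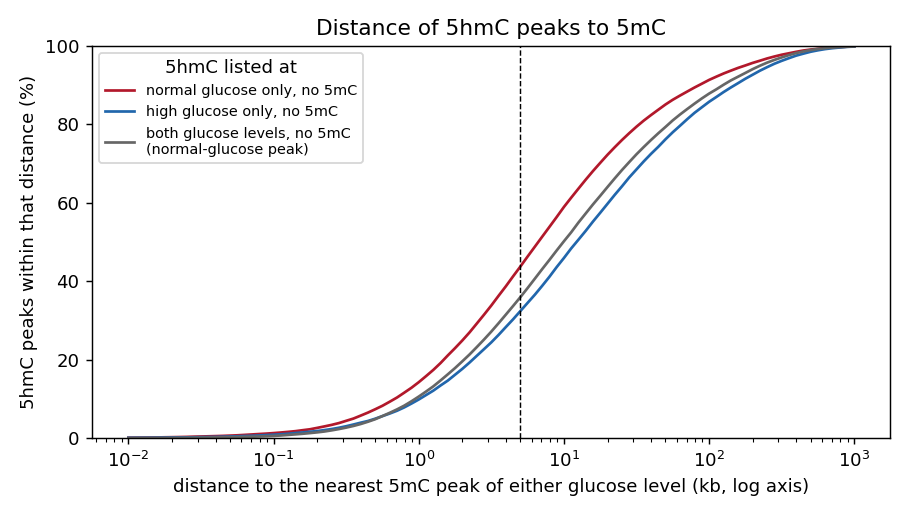
Share of 5hmC peaks (%, vertical axis) that have a 5mC peak of either glucose level within a given distance (kb, log axis), for normal-only, high-only and stable regions. At 5 kb, the dashed line, the curves stand at 43.7%, 32.4% and 35.9%, with normal-only regions highest.

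The difference from high-only and from stable regions was present in each of the 5 ranges of peak strength examined. Among weak peaks it was smallest against the high-glucose peaks of stable regions. Of these, 46.6% had 5mC within 5 kb below a -log10 p of 5 and 41.9% from 5 to 7. The normal-glucose peaks of stable regions had 40.4% and 37.2% in the same ranges. Among peaks with a -log10 p below 5, 48.3% of normal-only and 39.0% of high-only regions had 5mC within 5 kb. From 5 to 7 the shares were 43.7% and 34.9%, from 7 to 10 they were 41.0% and 30.0%, and from 10 to 15 they were 39.7% and 27.4%. At 15 or more the shares were 47.4% of 698 normal-only regions (43.7 to 51.1) and 28.7% of 1369 high-only regions (26.4 to 31.2). Among the 93 normal-only regions of at least 20, 52 had 5mC within 5 kb, or 55.9% (45.8 to 65.6), against 66 of 223 high-only regions, or 29.6% (24.0 to 35.9).

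The 5mC beside normal-only regions was not of a particular glucose level. With the normal-glucose 5mC list alone the shares within 5 kb were 36.9% of normal-only and 26.4% of high-only regions, and with the high-glucose 5mC list alone 38.6% and 28.4%. Where 5mC lay within 5 kb of a normal-only region, the nearest 5mC region was listed at both glucose levels in 57.9% of cases, in normal glucose alone in 18.3% and in high glucose alone in 23.8%. Over all 118306 regions of 5mC these shares were 59.3%, 16.7% and 24.0%.

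At the scale of 1 Mb windows, the balance between normal-only and high-only regions shifted with the amount of 5mC. Cover here is the percent of a window that lies in 5mC peaks, averaged over both glucose levels. In the 575 windows poorest in 5mC, with a cover of at most 0.242%, there were 4240 normal-only and 4936 high-only regions, a ratio of 0.859. In the next 3 groups of 575 windows the ratio was 1.03, 1.19 and 1.39. In the 575 windows richest in 5mC, with a cover from 3.29% to 40.9%, there were 18908 normal-only and 11214 high-only regions, a ratio of 1.69.

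Both sets took part in this shift. Per 100 stable peaks, normal-only regions numbered 40.6 in the poorest and 52.6 in the richest windows, while high-only regions numbered 47.3 and 31.2. Normal-only regions were the more numerous set in 31.3% of the poorest and 89.4% of the richest windows, against 61.2% of all 2875 windows. The ratio in the richest windows divided by that in the poorest was 1.96. It lay between 1.56 and 1.98 in the 8 alternative settings, including those in which high-only regions were the more numerous overall. With the classes formed anew at a -log10 p of at least 10, the ratios were 0.826 in the richest and 0.466 in the poorest windows.

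The ratio also differed with the density of 5hmC. With the windows grouped by their number of stable peaks, it was 0.990, 1.12, 1.27, 1.40 and 1.44 from the poorest to the richest group. Per 100 stable peaks both sets were fewer in the richest of these groups. Normal-only regions numbered 63.5 in the poorest and 42.9 in the richest group, and high-only regions 64.1 and 29.9. Over 2875 windows, which share libraries and are not independent, the number of normal-only regions correlated with that of stable peaks at a Spearman rho of 0.822. It correlated with 5mC cover at 0.765 and with the number of high-only regions at 0.720. High-only regions also rose with 5mC cover, at a rho of 0.555. A split chosen after the data were seen divided each of these 5 groups at its median 5mC cover. The ratio was higher in the 5mC-richer part of each group, at 1.04, 1.28, 1.45, 1.64 and 1.61, than in the poorer part, at 0.927, 0.951, 1.07, 1.16 and 1.27. The reverse split, by stable peaks within the 5 groups of 5mC cover, went both ways. In the group richest in 5mC the ratio was 1.58 with more and 1.83 with fewer stable peaks, and in the fourth it was 1.40 and 1.36.

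**Figure D5:**
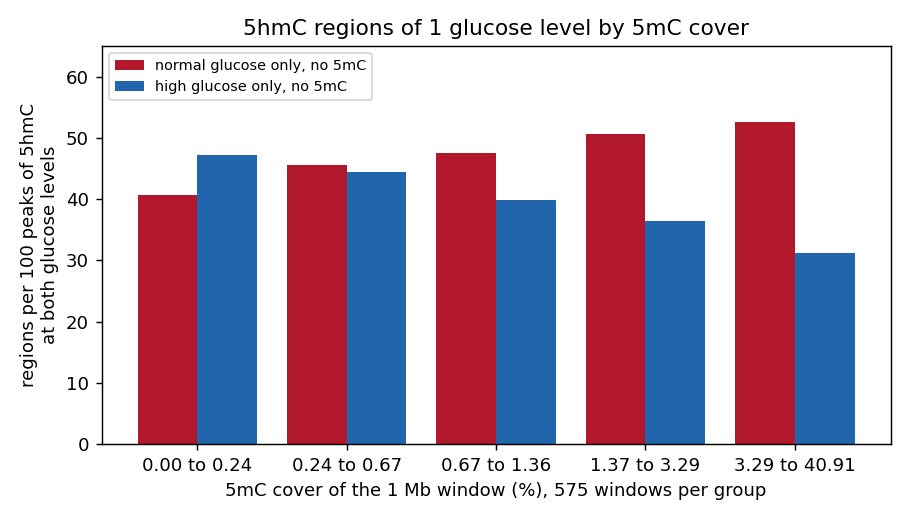
Normal-only and high-only regions per 100 normal-glucose 5hmC peaks of stable regions (vertical axis), in 5 groups of 575 windows of 1 Mb ordered by 5mC cover (%, horizontal axis). From the poorest to the richest group the bars stand at 40.6 and 52.6 for normal-only regions and at 47.3 and 31.2 for high-only regions.

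The median window held 16 normal-only regions (quartiles 9 and 27), and 41 windows held none. The highest number, 63, was found in 4 windows, chr1:8000001-9000000, chr5:14000001-15000000, chr5:149000001-150000000 and chr10:114000001-115000000. These windows held 30, 19, 26 and 20 high-only regions and 76, 72, 117 and 76 stable peaks in the same order. The window chr17:48000001-49000000 came next, with 61 normal-only and 39 high-only regions and 106 stable peaks. Since normal-only regions and stable peaks rose together over the windows, a high number alone does not mark an excess over other 5hmC.

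The largest excess over high-only regions was in chr1:33000001-34000000, with 60 against 11. It was followed by chr17:1000001-2000000, with 57 against 12, where 5mC covered 20.6% of the window in normal and 22.5% in high glucose. The third was the window of chromosome 5 from 14000001 and the fifth that of chromosome 10 from 114000001. The fourth was chr2:238000001-239000000, with 59 against 16. In the window of chromosome 1 all 5hmC peaks together covered 14.7% in normal and 11.1% in high glucose. The converse was found in chr1:37000001-38000000, 4 Mb further along the chromosome, with 20 normal-only and 42 high-only regions and a 5mC cover of 0.328% in normal and 0.574% in high glucose. The other 4 windows with the largest excess of high-only regions were chr2:1000001-2000000, with 7 against 27, chr7:150000001-151000000, with 12 against 31, chr10:86000001-87000000, with 7 against 26, and chr20:15000001-16000000, with 9 against 28. That of chromosome 7 was rich in 5mC, with a cover of 7.80% in normal and 7.995% in high glucose, and the other 3 had at most 1.49%. All these windows were chosen for their difference in numbers.

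Normal-only regions mostly lay near other 5hmC. The nearest high-glucose 5hmC peak was a median of 3322 bp away (quartiles 1276 and 8311), and 61.7% of normal-only regions had one within 5 kb (61.3 to 62.1). For high-only regions, 57.0% had a normal-glucose 5hmC peak within 5 kb (56.6 to 57.5), although that list is the longer of the pair. Within 200 bp, 0.902% of normal-only and 1.004% of high-only regions had a 5hmC peak of the other glucose level. The rule had removed every region that overlapped such a peak, so these shares cannot show whether close partners are rare. Within their own list, 0 regions of either set had a neighbour within 200 bp. The same held for stable peaks, so this is not a trait of normal-only or high-only regions. In the order along the genome, 34.8% of the regions next to a normal-only region were stable 5hmC regions, 19.4% were other normal-only regions, 13.5% were high-only regions, 12.04% carried 5mC with 5hmC and 20.3% carried 5mC alone. Next to high-only regions, 5mC with 5hmC made up 8.27%. Over all regions the shares were 34.0% stable, 16.9% normal-only, 12.9% high-only, 13.9% 5mC with 5hmC and 22.3% 5mC alone.

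A minority stood alone. The farthest from any other listed peak was chr9:69736857-69737473, with 13 fragments at its summit (6.92 to 22.2) and no peak within 272168 bp. It was followed by chr15:20851940-20852316, with 19 fragments where 6.57 were expected, and chr6:62057581-62057881, with 16 fragments where 5.63 were expected and no 5mC peak within 2188114 bp.

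A small class of normal-only regions was wide. At least 1000 bp were covered by 717 of them, or 1.33% (1.24 to 1.43), against 232 high-only regions, or 0.563% (0.495 to 0.640). The ratio of these numbers was 3.09, in sets whose own numbers stood at a ratio of 1.31. Wide peaks were far more frequent in stable regions, at 9.76% of their normal-glucose and 10.1% of their high-glucose peaks. The shortest peaks, read as the fragment length used in calling, were 259 bp in normal and 292 bp in high glucose. The wide regions held a median of 18 fragments at the summit in normal-only and 19 in high-only regions, and narrower normal-only regions held 16. They were also the normal-only regions closest to 5mC. A 5mC peak lay within 5 kb of 66.1% of wide normal-only regions (62.6 to 69.5), against 45.3% of wide high-only regions (39.0 to 51.7) and 46.2% of wide stable peaks (45.3 to 47.2). Among narrower normal-only regions the share was 43.4%. With the classes formed anew, the ratio of wide regions was 1.04 with every list kept at a -log10 p of at least 10. It was 1.43 when only an overlap of 50% of both peaks counted and 1.55 with lists of equal length.

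The widest normal-only region was chr12:57908329-57911008, of 2680 bp, which was also the eighth strongest. The next were chr12:109003202-109005736, of 2535 bp with 28 fragments at its summit, and chr16:2565563-2568005, of 2443 bp with 17 fragments. The last lay 273 bp from a high-glucose 5hmC peak and 949 bp from 5mC. By chromosome, wide regions were 2.89% of normal-only regions on chromosome 21 and 2.166% on chromosome 17, against 0.339% on the X chromosome, where 5 were found. The window with the most of them, chr17:70000001-71000000, held 7.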

How the data were processed

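The authors deposited 1 narrow peak list per library, per the labels, and the build is hg19, per the submitters' processing notes. The same notes list bedtools 2.17.0, SAMtools 0.1.18, Bowtie 1.0.0 and CASAVA 1.8.2, with no roles. No source used here names the peak caller or its control. In each deposited list the authors give the -log10 of a q-value, the -log10 of a p-value, a ratio of enrichment (fold) and a display score, which was not used. Groups were taken from the sample titles. Inside the lists, peak names carry Low where the titles say normal and Ctrl where they say high glucose. Peaks outside chromosomes 1 to 22 and X were dropped.

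The number t of fragments at a summit and the expected number L were searched for which (t + 1)/(L + 1) gave the fold and a Poisson count above t had the listed p-value, with a misfit below 1% of the step to the next whole number. This succeeded for all but 1 of the peaks kept. The background was the smallest L shared by at least 0.5% of a list. The search, the classes and the distances were tested on simulated data. Python 3.11.15, NumPy 2.4.6, pandas 2.3.3 and SciPy 1.17.1 were used.

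The members, sets and settings were chosen with earlier results of these data known. Named are the 10 strongest regions by -log10 p, the 3 farthest from any other peak, the 5 windows with the most members and the 5 with the largest excess. The widest regions and the windows named for wide regions or for an excess of high-only regions were chosen after their values were seen. The planned CpG content and gene overlap were not computed, because no genome or annotation of hg19 was used here.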

Additional observations from a re-analysis of the deposited data

How the results depend on the processing

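The closer position to 5mC of normal-only than of high-only regions, and the higher ratio of normal-only to high-only regions in 5mC-rich windows, kept their direction in all settings tried. The number and the ratio did not. Settings that shortened the lists formed the classes anew, so their normal-only regions could include some that a weaker peak of another list overlapped. The upper quartile of summit fragments in normal-only regions was 18, and no setting varied the depth itself. The number of normal-only regions was 19843 with peaks of -log10 p 10 or more and 81540 when only an overlap of 50% of both peaks counted, and between 44880 and 54308 in the other 6 settings. The ratio to high-only regions was 1.14 with peaks of -log10 p 5 or more, 0.645 at 10, 1.24 at a -log10 q from 2 upwards, 0.961 with lists of equal length, 1.25 when peaks within 500 bp counted as touching, 1.24 with an overlap of 50% and 1.33 with matched background, which kept 209997 of 209999 normal-glucose and 190402 of 191314 high-glucose 5hmC peaks and so could hardly move the ratio. It was above 1 on 22, 0 and 7 of 23 chromosomes at the -log10 p limits of 5 and 10 and with lists of equal length. The cause was not tested. The share of normal-glucose 5hmC peaks that were normal-only regions, 25.7%, was in the same order 25.4%, 23.3%, 25.4% (at the -log10 q), 23.5%, 21.8% and 38.8% up to the overlap of 50%.

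The share of normal-only regions with 5mC within 5 kb, 43.7%, was 41.2%, 28.7%, 43.2%, 41.7%, 37.8% and 52.5% in that order, where high-only regions had 31.0%, 19.96%, 32.2%, 32.6%, 27.5% and 45.4%. On autosomes only it was 44.3%, with 1 and 20 kb as the distance 14.3% and 72.3%, and with the normal- or the high-glucose 5mC list alone, a choice made after the data were seen, 36.9% and 38.6%. The share near high-glucose 5hmC, 61.7%, was 58.4%, 43.1%, 60.9%, 61.1%, 56.6% and 73.2% in that order, 62.1% on autosomes only, and 19.7% and 91.5% at 1 and 20 kb. The share near chromosome ends, 9.53%, was 8.37% when peaks within 500 bp counted as touching, 13.3% with an overlap of 50%, and 3.51% and 19.4% for zones of 2 and 10 Mb. The ratio of wide regions, 3.09, was 2.13 at the -log10 p limit of 5, 1.04 at 10, 1.55 with lists of equal length and 1.43 with an overlap of 50%. This ratio and that by 5mC cover were tried under these settings only once their values were known. The alternatives for CpG content and gene overlap were not run. No paired analysis was possible because each group has 1 library.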

Other observations

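Normal-only regions also came in short runs, uninterrupted by any other region of the 4 lists. Of all normal-only regions, 34.6% stood in runs of 2 or more (Wilson 95% interval 34.2 to 35.0), against 29.4% of high-only regions (29.0 to 29.8), which are the less numerous set. There were 80 runs of 5 or more normal-only regions and 39 of high-only regions, but 4 and 5 of at least 7. A larger set forms more runs even in random order, so these shares and counts do not show which set is the more clustered. Of the regions next to a normal-only region 19.4% were normal-only, where 16.9% of all regions are, and of those next to a high-only region 16.3% were high-only, where 12.9% of all regions are. The longest runs of normal-only regions held 7, at chr9:37987583-38001694, chr10:128339361-128356476, chr12:104327813-104345658 and chr14:56243914-56320437. The first 3 spanned 14.1, 17.1 and 17.8 kb and the last 76.5 kb. The longest run of high-only regions held 8 and spanned 41.6 kb on chromosome 7.

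The expected number of fragments differed between chromosomes in both sets alike. Its median at normal-only regions was 2.64, the genome-wide background, on chromosomes 6, 14, 18, 21, 22 and X, and 4.14 on chromosome 20, 4.01 on chromosome 11 and 3.89 on chromosome 1. At high-only regions chromosome 20 was also the highest, at 4.94, and the same 6 chromosomes stood at 3.03.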
